A study of Mus musculus with 3 samples.

Results

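The 45 genes described here encode the machinery that copies DNA and the enzymes that make its building blocks, in mpkDCT4a cells, an immortalised mouse line with features of the distal convoluted tubule of the kidney. They were chosen by name, with earlier results of these data known, and are 45 of the 55487 genes in the deposited count table. Each matched a single Ensembl identifier. The study's title concerns the three-dimensional organisation of gene regulation in this nephron segment, and its RNA-seq arm holds 3 libraries of 1 group of unmodified cells. No comparison between conditions was therefore possible. The cells grew at 37 °C under 5% CO2 in DMEM/F-12 with 2% serum, 10 ng/ml epidermal growth factor, 50 nM dexamethasone (a synthetic glucocorticoid), 1 nM triiodothyronine (a thyroid hormone) and 5 µg/ml each of insulin and transferrin. The medium also held 90 nM selenate, 20 mM glucose, 2 mM glutamine and 20 mM HEPES at pH 7.4. Passage, cell density and the share of cells in S phase are not given in the labels, nor is whether the libraries came from separate cultures. In a bulk sample, fewer cells in S phase and less RNA per cell cannot be told apart.

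DNA replication begins at origins, which the origin recognition complex (ORC) marks and where Cdc6 and Cdt1 load the ring-shaped MCM2-7 helicase. Cdc45 and the GINS complex turn the loaded ring into an active helicase, RPA coats the single strands it exposes, and polymerase alpha-primase lays down primers that polymerases epsilon and delta extend while held by the PCNA clamp. Ribonucleotide reductase, thymidylate synthase and thymidine kinase supply the deoxynucleotides. Many of these genes are known targets of E2F transcription factors and are transcribed most strongly as cells enter S phase, so cultured dividing cells usually express them.

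Replicates 1, 2 and 3 had 436983, 482418 and 443192 counts in all. At this depth 1 count equals 2.31, 2.07 and 2.24 CPM (counts scaled to a common library total, here the TMM-normalised one). For a gene without counts in any library, 3 counts set the upper limit, at 2.20 CPM for the pooled libraries (counting error only). Levels of different genes are compared in TPM, in which counts are divided by the length of the gene's merged annotated exons before scaling. The ± values are SDs of the 3 libraries (n = 3) throughout. Markers of the labelled cell type were sparse. Of 12 distal convoluted tubule markers 5 reached a mean of 1 CPM, led by Wnk4 (45.2 CPM). The defining cotransporter gene Slc12a3 had 0 counts. Of 6 proximal tubule markers 2 reached 1 CPM, Lrp2 (215 CPM) and Cubn (5.10 CPM), while Slc34a1, Slc5a2, Slc5a12 and Slc22a6 had 0 counts. Of 6 leukocyte markers 2 reached 1 CPM, led by Csf1r (45.8 CPM), while Ptprc had 0 counts. All 4 fibroblast markers reached 1 CPM, at 7.31 CPM or lower, and of 4 endothelial markers Flt1 was detected and Pecam1 had 0 counts. The part of other cell types in the levels below was not tested.

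All 45 genes were expressed. Each had counts in every library and a mean of at least 1 CPM, a level that 50.6% of protein-coding genes reached and that is called detected here. 46.6% of protein-coding genes had a count in every library. The median of the 45 genes was 92.1 ± 5.89 CPM, beside 39.6 ± 0.602 CPM for all 11122 detected protein-coding genes, and 20 of the 45 (44.4%) reached 100 CPM, beside 24.1% of the detected protein-coding genes. Per length, their median was 82.9 ± 7.64 TPM against 31.4 ± 0.346 TPM, and 37 of the 45 lay above the latter value. The 8 genes below it were Orc1, Orc3, Orc5, Mcm8, Gins2, Gins3, Pole2 and Tk1. With the length of the main annotated transcript in place of the merged exons, 39 lay above the median of 34.0 TPM, and Orc3 and Tk1 were no longer among the 6 below. Together the 45 genes took 0.631%, 0.622% and 0.617% of all counts in replicates 1, 2 and 3, with exact binomial 95% intervals of 0.608% to 0.655%, 0.600% to 0.645% and 0.594% to 0.640% that overlap. The helicase genes Mcm2 to Mcm7 held 32.0% of these counts and ribonucleotide reductase 11.6%.

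**Figure D1:**
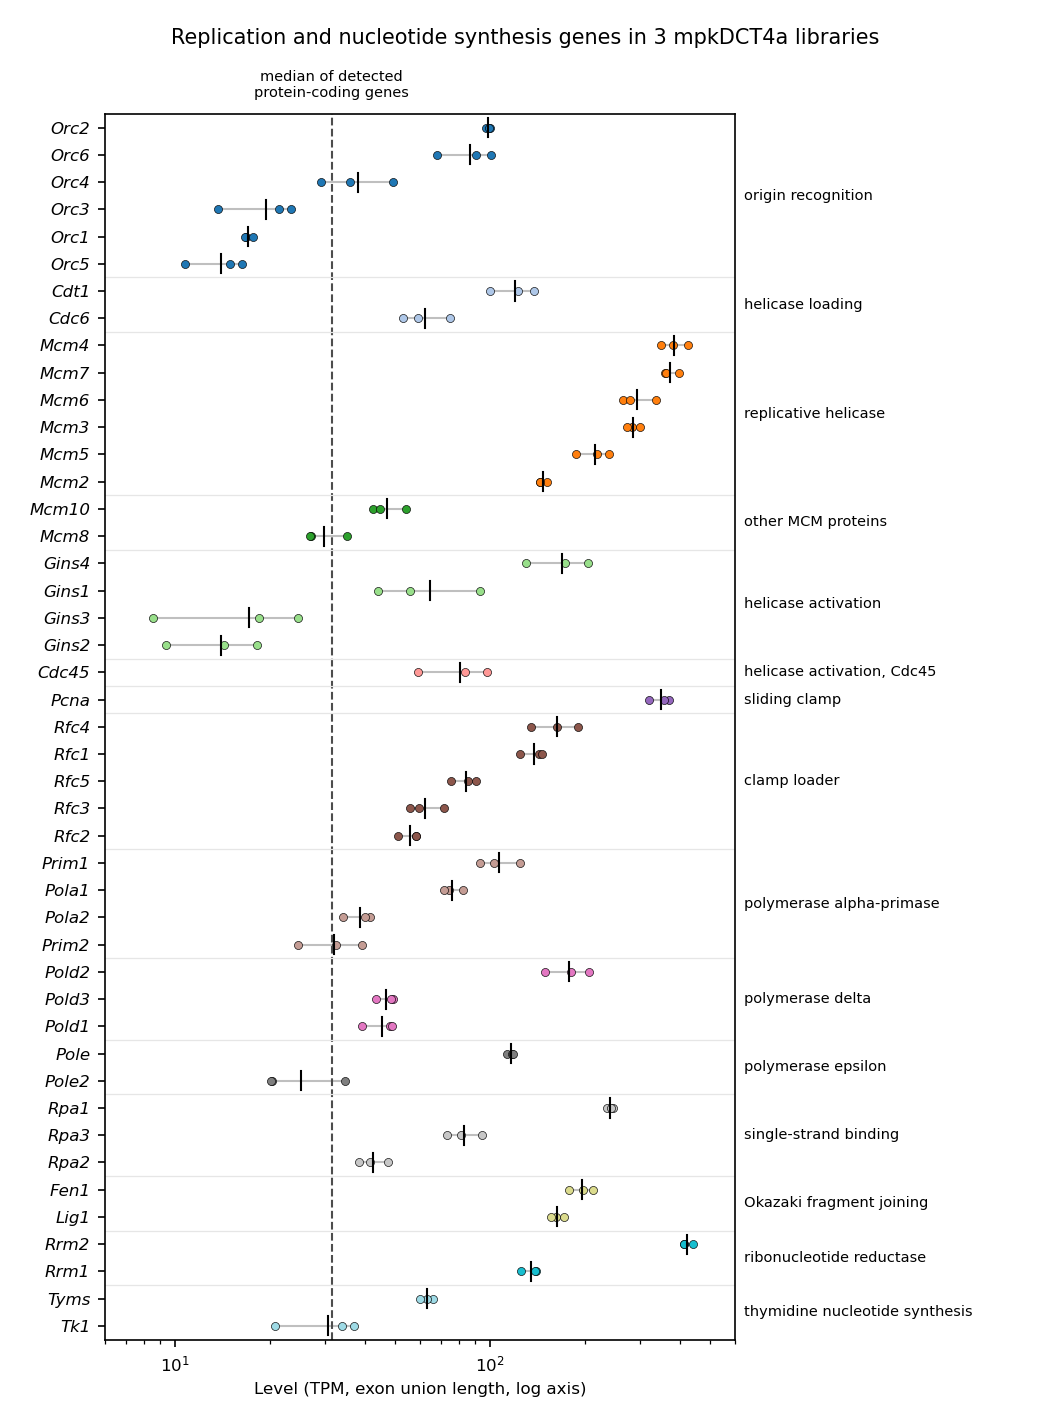
Level of each of the 45 genes in TPM (merged exons) on a log axis, grouped by role; points are the 3 libraries, black ticks their mean, grey lines their range, and the dashed line is the median of detected protein-coding genes (31.4 TPM). Rrm2, Mcm4 and Mcm7 stand at the top, the 6 helicase genes lie between 147 and 385 TPM, and Gins2 and Orc5 have the lowest means, at 14.0 TPM.

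Within the set the levels formed a nearly continuous order from Rrm2 at 423 ± 15.4 TPM down to Orc5 (14.0 ± 2.86 TPM) and Gins2 (14.0 ± 4.46 TPM). When the genes were ranked by mean TPM, 42 of 44 neighbouring pairs had overlapping ranges over the libraries. The ranges of Mcm3 and Rpa1, and of Orc1 and Orc5, did not overlap. With main transcript lengths, however, the mean of Orc5 (29.0 TPM) was above that of Orc1 (13.9 TPM). Ranks that lie close together are therefore not resolved. The length used matters as well: GENCODE M21 merges the exons of all transcripts of a gene, and for Tk1, Pola2, Prim2 and Orc5 this gives 3.61, 3.43, 3.01 and 2.93 times the length of the main annotated transcript, but 1.00 times for Mcm4 and Gins4. Unless another length is named, TPM values use merged exons. With main transcripts the levels of Prim2 (68.1 TPM), Prim1 (185), Rfc3 (120), Orc5 (29.0) and Orc3 (36.4) were all higher than the merged-exon values given below.

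The genes of origin recognition had a low median, 28.8 ± 6.76 TPM, or 42.9 TPM with main transcript lengths. The median of GINS was 40.8 and 38.2 TPM under these lengths, so which of these groups is lower depends on the length. Orc2 (ENSMUSG00000026037) lies on the minus strand of chromosome 1, 58462771 to 58505109 in GRCm38, and its 46, 49 and 46 counts gave 98.8 ± 1.15 TPM. Orc6, a subunit that binds the core complex loosely, had 20, 29 and 30 counts (86.3 ± 17.0 TPM), and Orc4 had 44, 35 and 26 (38.1 ± 10.3 TPM). The ranges of Orc2 and Orc6 overlapped, and both lay above the other 4 subunits in every library. Orc3 was at 19.5 ± 5.13 TPM and Orc5 at 14.0 ± 2.86 TPM. Orc1 (ENSMUSG00000028587, chromosome 4, 108579423 to 108614833, plus strand), the ATPase subunit whose level is known to rise and fall with the cell cycle, had 7, 8 and 7 counts and 17.1 ± 0.506 TPM. Its counts per length were 0.173 times those of Orc2 (95% counting interval 0.105 to 0.272), and 0.184 times with main transcript lengths. Orc6 stood at 0.875 times Orc2, with an interval of 0.656 to 1.16 that includes equality, at 1.55 times (1.16 to 2.06) with main transcript lengths and at 0.675 times (0.506 to 0.896) with unshared stretches. Of Orc2's exon bases 29.8% are overlapped on the opposite strand by Nif3l1, and the counting of such bases is not stated.

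Cdc6 and Cdt1, the factors that bring the helicase to ORC, had a mean between the ORC and helicase medians, 91.2 ± 14.9 TPM. Cdt1 had 46, 41 and 52 counts and 120 ± 18.9 TPM, and Cdc6, an ATPase of the loading reaction, had 37, 36 and 47 counts and 62.3 ± 11.3 TPM. Cdc6 had 3.63 times the counts per length of its relative Orc1 (2.29 to 6.01). Gmnn, which encodes geminin, the inhibitor that binds Cdt1 after origins have fired, had 31, 23 and 19 counts and 135 ± 36.8 TPM. The ratio of Cdt1 to Gmnn was 0.888 (0.665 to 1.20) and did not have the same direction in all libraries, with log2 ratios of -0.54, -0.28 and 0.33.

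The 6 helicase subunits Mcm2 to Mcm7 were among the highest genes of the set. Mcm7 (ENSMUSG00000029730, chromosome 5, 138164583 to 138172422, minus strand) had 190, 230 and 193 counts and 374 ± 22.1 TPM. Mcm4 (ENSMUSG00000022673, chromosome 16, 15623897 to 15637400, minus strand) had 182, 163 and 165 counts and 385 ± 37.8 TPM. Mcm6 had 148, 169 and 189 counts (293 ± 38.2 TPM). These 3 genes and Mcm3 (285 ± 13.6 TPM) lay above Mcm5 in every library. Mcm5 was at 215 ± 25.9 TPM with 114, 114 and 90 counts, and Mcm2 was the lowest in each library at 147 ± 4.52 TPM with 120, 138 and 121 counts. The subunits form a ring with a copy of each, and their highest and lowest TPM differed 2.94-fold, 2.62-fold and 2.64-fold in replicates 1, 2 and 3. With main transcript lengths the factor was 2.20 and the order changed: Mcm7 was the highest (394 TPM) and Mcm5 the lowest (179 TPM), so which subunit is lowest depends on the length. 2 microRNA genes lie within annotated exon bases of Mcm7, Mir25 and Mir93, and each had 0 counts. Both lie on the strand of Mcm7, and how reads on such shared bases were counted is not stated. Their 0 counts therefore do not show that they were absent.

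The helicase genes stood well above those that load and activate it. Their median TPM was 7.54, 9.57 and 13.9 times the ORC median in the 3 libraries, and the lowest helicase gene (147 TPM) exceeded the highest ORC gene (98.8 TPM). With main transcript lengths the ratios were 5.08, 5.58 and 8.43. Relative to the 5 genes of GINS and Cdc45, the helicase median was 6.21, 4.94 and 5.36 times as high, although the mean of Gins4 (169 TPM) exceeded that of Mcm2. Gins4 was below Mcm2 in replicate 1 and, with main transcript lengths, at 119 against 214 TPM. Relative to the mean of Cdc6 and Cdt1 it was 3.02, 3.59 and 2.99 times as high. The helicase median was thus the higher one in each library and for either length.

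The GINS genes were unequal. GINS is a ring of 4 small subunits, and Gins4 had 21, 36 and 28 counts (169 ± 37.5 TPM), Gins1 had 8, 11 and 17 (64.4 ± 25.7 TPM), Gins3 had 6, 3 and 8 (17.2 ± 8.11 TPM) and Gins2 had 7, 5 and 9 (14.0 ± 4.46 TPM). Gins4 was the highest in every library, and the highest and lowest subunits differed 9.11-fold, 24.1-fold and 9.45-fold. The factor of replicate 2 rests on the 3 counts of Gins3, and without that library the factor of the means was 9.30. Gins2 (chromosome 8, 120578633 to 120589304, minus strand) shares 67.3% of its exon bases with Gse1 on the opposite strand. If only the stretches of Gins2 not found in other genes had been countable, its level would be 40.4 TPM and Gins3 would be the lowest, still 9.80-fold below Gins4. Cdc45 had 41, 38 and 25 counts and 80.1 ± 19.4 TPM.

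The other MCM proteins were lower. Mcm10, which helps to activate the helicase, had 39, 45 and 50 counts and 47.1 ± 6.14 TPM, or 0.587 times the counts per length of Cdc45 (0.451 to 0.766). Mcm8, which acts with Mcm9 in recombination and not in the replicative ring, had 12, 17 and 12 counts and 29.7 ± 4.73 TPM. Mcm9 had 16, 20 and 18 counts. Mcm8 was at 1.86 times Mcm9 per length (1.21 to 2.85), but at 1.17 times (0.757 to 1.78) with main transcript lengths, and without replicate 2 the interval of 0.982 to 3.00 included equality.

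Of the polymerases, the large catalytic subunits did not have a common rank within their complexes. In polymerase alpha-primase, the primase catalytic subunit Prim1 was the highest in every library with 43, 52 and 58 counts (107 ± 16.2 TPM), and Prim2, the other primase subunit, was the lowest with 23, 19 and 28 counts (32.1 ± 7.33 TPM), a ratio of 3.36 (2.51 to 4.52). Pola1, the DNA polymerase subunit, had 78, 94 and 76 counts and 75.9 ± 5.33 TPM. It was at 0.711 times Prim1 (0.579 to 0.876), a ratio whose interval reached 1.03 without replicate 3. It was at 1.96 times its accessory subunit Pola2 (1.57 to 2.46), but at 0.944 times (0.755 to 1.18) with main transcript lengths, since the merged exons of Pola2 are long. In polymerase delta, the lagging-strand polymerase, the accessory subunit Pold2 had 41, 51 and 34 counts (179 ± 28.7 TPM) and was above the catalytic subunit Pold1 (28, 31 and 23 counts, 45.5 ± 5.34 TPM) and Pold3 (47.0 ± 3.11 TPM) in every library. Pold1 had 0.254 times the counts per length of Pold2 (0.190 to 0.338) and did not differ from Pold3 beyond counting error (0.971, interval 0.705 to 1.34). In polymerase epsilon, the leading-strand polymerase, the catalytic subunit was the higher of the 2 subunits in the set. Pole had 151, 171 and 159 counts and 116 ± 2.86 TPM, or 4.60 times the level of Pole2 (3.12 to 7.05), which had 7, 13 and 7 counts. Pold1 was at 0.392 times Pole (0.306 to 0.496), and at 0.354 times with main transcript lengths. The further subunits Pold4, Pole3 and Pole4 are not in the set. Pold4 had 1, 1 and 4 counts (14.1 ± 12.5 TPM). Pole3 and Pole4 were at 77.0 ± 11.5 and 52.5 ± 12.3 TPM.

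The clamp gene Pcna and Rpa1, a subunit gene of the single-strand binding protein RPA, had high RNA levels, with lower partners. Pcna (ENSMUSG00000027342, chromosome 2, 132249162 to 132253314, minus strand), the sliding clamp that tethers polymerases, had 106, 112 and 92 counts and 349 ± 26.6 TPM. The clamp loader RFC is a complex of 5 subunits, and Rfc4 had 163 ± 27.9 TPM, Rfc1 138 ± 12.0, Rfc5 83.7 ± 7.76, Rfc3 62.2 ± 8.23 and Rfc2 55.9 ± 4.08 TPM. With main transcript lengths Rfc3 (120 TPM) was above Rfc5 (98.7 TPM). Rfc1, the large subunit particular to this loader, was at 2.48 times Rfc2 (2.01 to 3.07). It stood above the large subunits of the alternative loaders, at 4.84 times Chtf18 (3.63 to 6.56), which acts in cohesion, and 2.73 times Atad5 (2.23 to 3.36), which unloads PCNA. Rpa1, the DNA-binding subunit of RPA, had 164, 171 and 163 counts and 241 ± 5.46 TPM. It was at 5.69 times Rpa2 (4.21 to 7.84; 17, 15 and 15 counts) and at 2.90 times Rpa3 (2.06 to 4.21; 11, 14 and 10 counts). These ratios were 3.78 and 1.88 with main transcript lengths. Rpa3 is the shortest of the 45 genes, with 1136 exon bases. With 300 bases, the approximate fragment length, taken off each gene, the ratio of Rpa1 to Rpa3 was 2.26.

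Lig1 and Fen1, which join and trim Okazaki fragments on the lagging strand, were both above the median of the set. Lig1 had 88, 90 and 80 counts and 163 ± 8.38 TPM, and was at 2.50 times Lig3 (2.06 to 3.05), the ligase of repair and mitochondria. Fen1 (ENSMUSG00000024742, chromosome 19, 10199132 to 10204169, minus strand), the flap nuclease, had 57, 67 and 52 counts and 196 ± 16.9 TPM. It was above Lig1 in every library with merged exons, but with main transcript lengths Lig1 was the higher by mean, at 155 against 141 TPM. The counts per length of Fen1 were 6.57 times those of the helicase-nuclease Dna2 (4.92 to 8.87) and 8.50 times those of the exonuclease Exo1 (6.43 to 11.3), which had 17, 37 and 18 counts. The antisense gene Gm10143, with 2 counts in all, covers 78.8% of the exon bases of Fen1. Per unshared base Fen1 would stand at 841 TPM, at 28.2 times Dna2 and 36.2 times Exo1, and whether reads on shared bases were counted is not stated.

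Ribonucleotide reductase, which converts ribonucleotides to deoxynucleotides, had both of its subunits at high levels. Rrm2 (ENSMUSG00000020649, chromosome 12, 24708241 to 24714146, plus strand), the small subunit known to be made in S phase, had 137, 159 and 138 counts and 423 ± 15.4 TPM, the highest mean of the set with merged exons. With main transcript lengths Mcm7 (394 TPM) and Pcna (389 TPM) stood above Rrm2 (377 TPM). Rrm1, the large catalytic subunit, had 184, 199 and 166 counts and 135 ± 8.02 TPM. Rrm1 thus had more counts but 0.318 times the counts per length (0.280 to 0.362), and 0.694 times with main transcript lengths. Rrm2b, the p53-inducible alternative small subunit, had 5, 12 and 11 counts, and Rrm2 stood at 51.1 times its level (34.9 to 77.8; 32.2 with main transcript lengths). Thymidylate synthase (Tyms), which makes thymidine monophosphate, had 48, 50 and 44 counts (63.0 ± 2.92 TPM), and thymidine kinase 1 (Tk1), the salvage enzyme of dividing cells, had 23, 23 and 13 (30.6 ± 8.62 TPM). Tk1 was at 1.84 times the mitochondrial kinase Tk2 (1.11 to 3.16), an interval that included equality without replicate 1 (0.880 to 3.24), and at 4.48 times with main transcript lengths. Tyms was at 2.05 times Tk1 (1.51 to 2.83), and at 1.10 times (0.803 to 1.51) with main transcript lengths. Whether Tyms exceeded Tk1 beyond counting error thus depended on the length.

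Of the 27 ratios that were computed, 24 had the same direction in all 3 libraries and 24 had a 95% counting interval that excluded equality. Those without were Orc6 to Orc2, Cdt1 to Gmnn, and Pold1 to Pold3. The exact sign-flip permutation test of the log2 ratios, two-sided, cannot give a p below 0.25 with 3 libraries, and 24 ratios reached that value. Of the kinase pair that fires origins, the catalytic subunit gene Cdc7 had 0.298 times the counts per length of its activator gene Dbf4 (0.204 to 0.424). With main transcript lengths the ratio was 0.110. Pcna stood at 2.15 times Rfc4 (1.70 to 2.75).

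**Figure D2:**
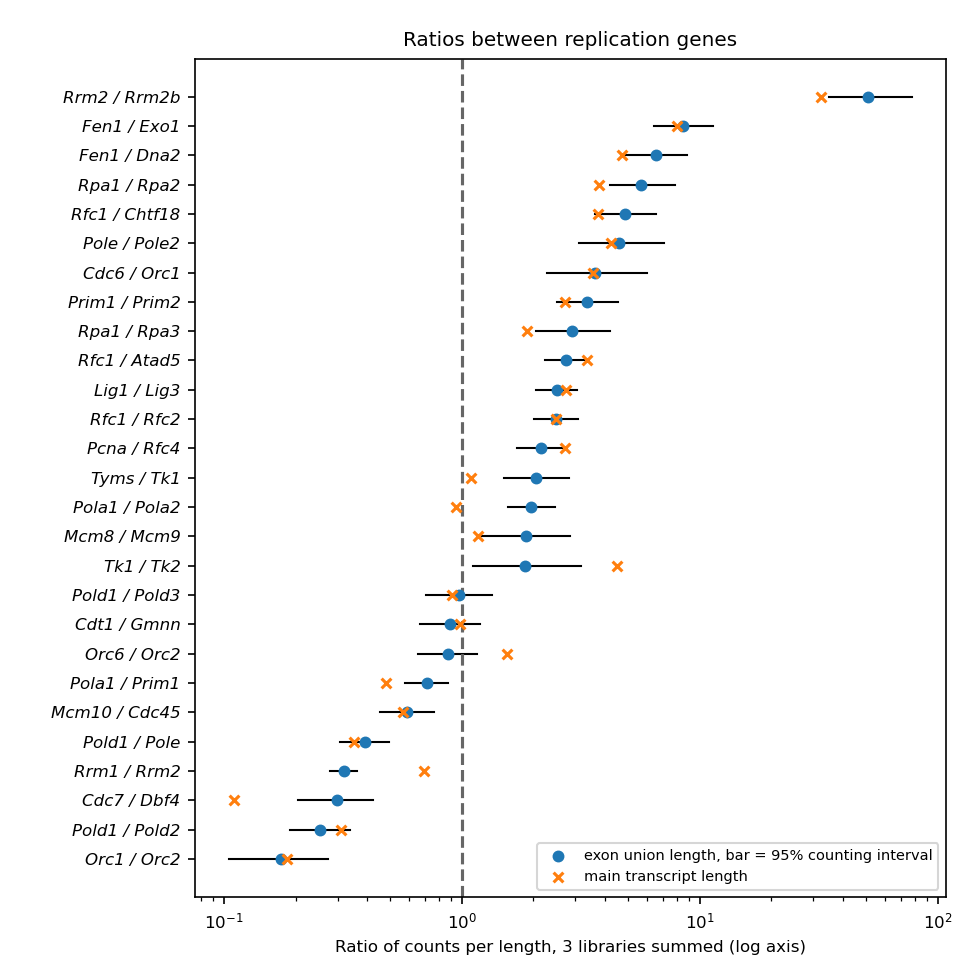
Ratio of counts per length for the 27 gene pairs on a log axis, with the 3 libraries summed; blue points with black bars use merged exon lengths and show 95% counting intervals, orange crosses use the main transcript. Most crosses stay on the side of equality (dashed line) of their point, and Pola1 to Pola2 moves from 1.96 to 0.944.

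Longer and shorter genes among the detected protein-coding ones differed in TPM, which divides counts by the same length that set the classes below. This difference was therefore not independent of the measure. Detected protein-coding genes in the shortest of 3 equal classes by merged exon length (up to 3503 bases) had a median of 39.6 TPM, and those in the longest (from 6052 bases) 26.8 TPM. The 14 and 11 genes of the set in these classes had medians of 103 and 55.9 TPM, and the 20 in the middle class had 91.3 TPM against 30.6 TPM. In each class the median of the set was therefore above that of all detected protein-coding genes.

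None of the 45 genes differed between the libraries beyond counting error. The counts of each gene were set against the effective library sizes by a chi-square test, which after Benjamini-Hochberg adjustment over all 12473 detected genes called 0 of the 45, beside 0.0401% of all detected genes. At an unadjusted p under 0.05 it called 0 of the 45, beside 4.89%, and an exact multinomial test for genes of up to 300 counts also called 0. The smallest unadjusted chi-square p was that of Orc4 (0.0624, adjusted 0.902), with 44, 35 and 26 counts. The largest ratio between libraries was 2.88, for Gins3 with 6, 3 and 8 counts, and the median ratio was 1.25. The mean chi-square per degree of freedom was 0.815 for the set and 1.09 for the 8983 genes averaging 5 counts or more, where counting error alone gives about 1. The medians were closer to each other, at 0.643 and 0.720. The genes had a median of 126 counts over the 3 libraries, which limits the differences that the test can detect.

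**Figure D3:**
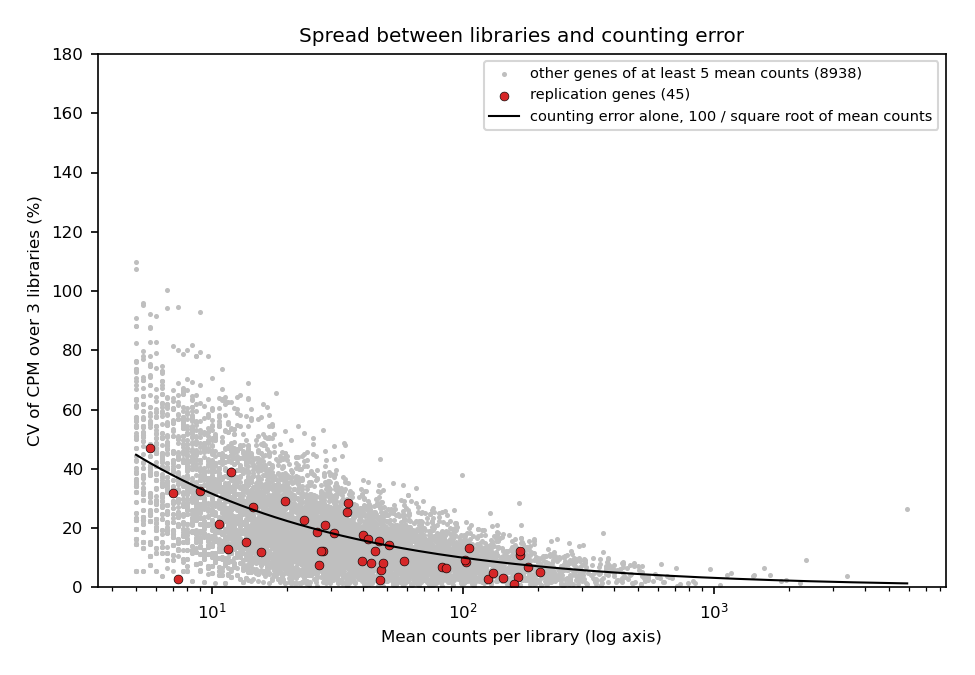
Coefficient of variation of CPM over the 3 libraries against mean counts (log axis), for the 45 replication genes (red) and the 8938 other genes averaging 5 counts or more (grey); the line is the variation that counting error alone gives. The red points scatter around the line and reach their highest value at the left, where Gins3 has the fewest counts.

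Most other genes of the pathway were detected as well. Of 13 genes of origin firing and its control, 12 were detected (median 38.4 ± 4.43 TPM), led by Gmnn, the MCM-binding protein gene Mcmbp (101 ± 11.2 TPM), the replication timing factor Rif1 (93.8 ± 4.45 TPM) and Topbp1 (85.2 ± 4.33 TPM), which recruits GINS. Mcmdc2, an MCM-like gene of meiosis, had 0 counts. All 20 genes of fork protection and accessory functions were detected (median 49.5 ± 4.29 TPM), and 19 of them had a count in every library. Top2a, which untangles daughter DNA, was far above the others at 474 ± 14.2 TPM. The fork protection partners Tipin and Timeless were at 127 ± 44.0 and 102 ± 4.20 TPM and Top1 at 84.7 ± 8.06 TPM. Of 10 genes that rebuild chromatin behind the fork all were detected, with a median of 106 ± 8.63 TPM. The histone chaperone FACT led them with both subunits, Ssrp1 (541 ± 20.8 TPM) and Supt16 (369 ± 28.7 TPM), followed by Uhrf1 (268 ± 12.3 TPM) and Dnmt1 (190 ± 16.4 TPM), which maintain DNA methylation.

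All 29 further genes of nucleotide synthesis and salvage were detected, with a median of 97.5 ± 6.65 TPM. The highest were Shmt2 (448 ± 36.1 TPM), which feeds the folate pool in mitochondria, and the purine enzyme genes Paics (441 ± 43.1 TPM) and Adss (183 ± 8.27 TPM), with the phosphoribosyl pyrophosphate synthetase Prps1 at 171 ± 44.1 TPM. These 4 medians lay above the 31.4 TPM of all detected protein-coding genes, and the lists were not tested against it.

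The promoters of the set often held an E2F motif. RefSeq promoter windows of build GRCm38.p6, which run from 250 bases before to 50 bases after a transcript start, were available for 38 of the 45 genes, in 46 windows. The E2F motif was searched on both strands as TTCCCGC and as its variant forms TTGGCGC, then TTCGCGC, and finally TTGCCGC. It occurred in a window of 25 of the 38 genes (65.8%), against 20.7% of 8822 detected protein-coding genes and 10.9% of all 27025 genes in the table. In 16 of the 25 genes a match lay wholly before the start. The window holds 250 bases before the start and 50 after it, and no such count was made for other genes. The CCAAT box, the letters of the NF-Y site on either strand, occurred in 24 of 38 (63.2%) against 43.5%, and both motifs together in 16 of 38 (42.1%) against 9.62%. In Mcm7, Rfc1 and Prim1 a CCAAT overlapped an E2F match by letters. The GC box GGGCGG occurred in 29 of 38 (76.3%) against 72%, and TATAAA in 3 of 38 (7.89%) against 7.98%. These shares describe letters in windows and were not tested.

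The following stretches are those in which an E2F match lies before the start and outside all exons annotated in GENCODE, which 7 genes had. They are shown because these are the letters counted above, 5′ to 3′ on the gene's strand, from 20 bases before the first match where the window allows up to the transcript start or to the nearest exon, with E2F matches and CCAAT boxes, read on either strand, in capitals.
Rrm2: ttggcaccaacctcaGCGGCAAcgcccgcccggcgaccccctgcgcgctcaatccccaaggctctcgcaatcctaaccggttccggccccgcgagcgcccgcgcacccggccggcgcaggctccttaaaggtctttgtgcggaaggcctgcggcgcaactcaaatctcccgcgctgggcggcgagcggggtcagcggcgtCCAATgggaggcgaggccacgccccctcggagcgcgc
Mcm7: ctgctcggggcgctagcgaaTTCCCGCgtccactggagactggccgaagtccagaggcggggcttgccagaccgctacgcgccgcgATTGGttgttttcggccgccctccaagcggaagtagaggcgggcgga
Mcm6: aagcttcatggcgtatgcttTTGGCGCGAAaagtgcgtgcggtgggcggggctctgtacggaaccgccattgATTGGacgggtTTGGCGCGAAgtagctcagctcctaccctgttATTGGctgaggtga
Mcm5: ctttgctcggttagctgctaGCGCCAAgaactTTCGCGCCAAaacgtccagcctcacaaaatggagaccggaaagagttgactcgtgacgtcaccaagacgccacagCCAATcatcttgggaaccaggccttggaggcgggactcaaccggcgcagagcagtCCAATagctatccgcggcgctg
Rrm1: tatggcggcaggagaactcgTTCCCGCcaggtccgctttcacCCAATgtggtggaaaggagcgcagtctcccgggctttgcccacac
Pola1: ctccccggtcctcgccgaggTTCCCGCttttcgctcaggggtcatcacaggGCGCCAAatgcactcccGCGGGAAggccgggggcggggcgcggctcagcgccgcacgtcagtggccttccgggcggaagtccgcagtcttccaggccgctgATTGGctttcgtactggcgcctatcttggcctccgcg
Rpa2: cgctgATTGGctgtcccttcGCGGGAAgg
The Rrm2 stretch is chr12:24708004-24708240 on the plus strand, and that of Mcm7 is chr5:138171267-138171399 on the minus strand, inside the annotated gene and upstream of an alternative start. Mcm6 (chr1:128359706-128359834, minus strand) holds 2 sites, each made of overlapping forward and reverse matches, and 2 CCAAT boxes. Mcm5 (chr8:75109325-75109508, plus strand) has 3 matches that form 2 sites, and 2 CCAAT boxes. Rrm1 (chr7:102441608-102441694, plus strand) has 1 of each, and Pola1 (chrX:93632156-93632344, minus strand) has 3 sites and 1 CCAAT box. Rpa2 (chr4:132768303-132768331, plus strand) has 1 site and 1 CCAAT box in 29 bases.

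**Figure D4:**
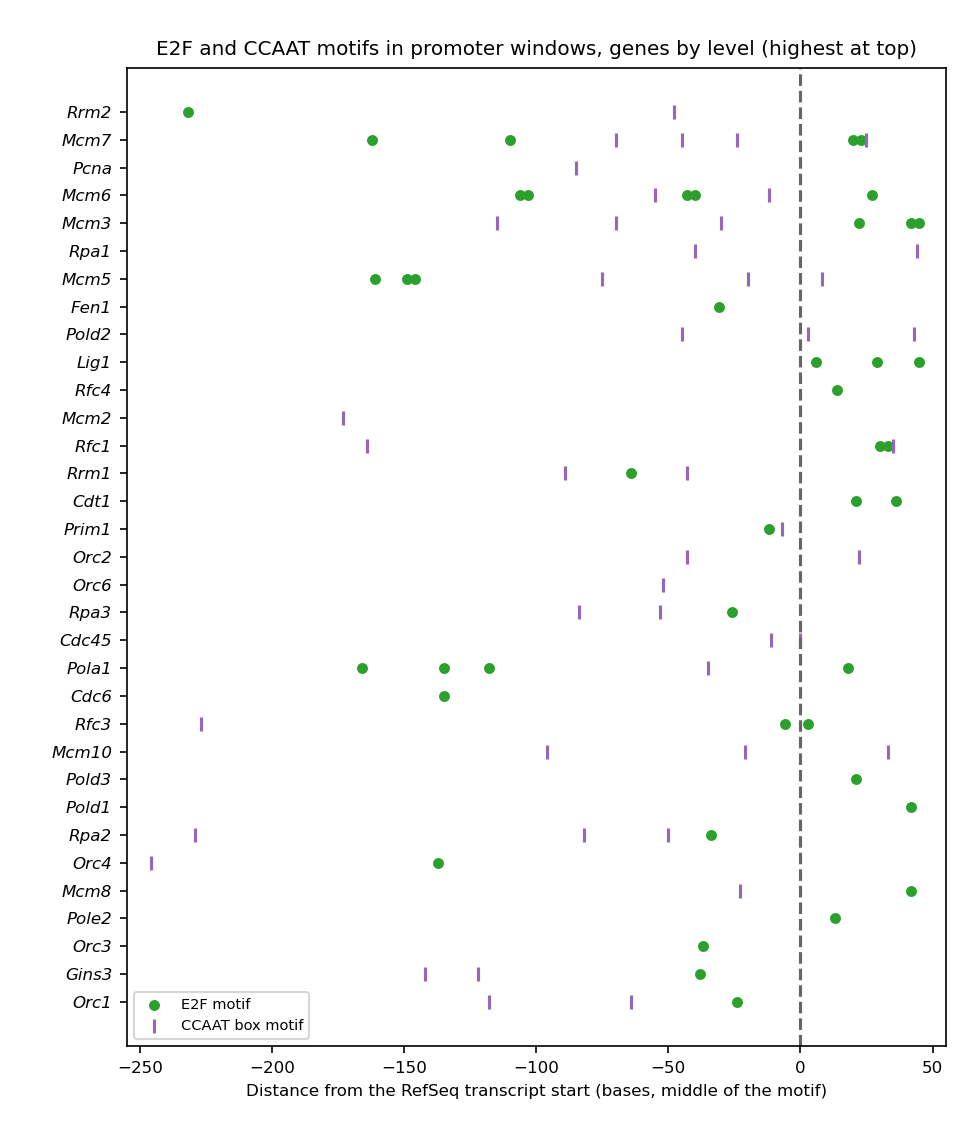
Position of E2F matches (green) and CCAAT boxes (purple) relative to the RefSeq transcript start, in bases, for the 33 genes of the set with either motif, ordered by level from Rrm2 at the top. E2F matches occur on both sides of the start. Plotted genes with a match range from 17.1 to 423 TPM, and those with only a CCAAT box from 47.1 TPM (Mcm10) to 349 TPM (Pcna). Genes with neither motif, among them Orc5 (14.0 TPM), are not plotted.

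Whether genes with an E2F match had the higher median depended on the length. With merged exons the 25 genes with a match had a median of 82.9 TPM (range 17.1 to 423) and the 13 without had a median of 83.7 TPM (14.0 to 349). With main transcript lengths the medians were 120 and 93.6 TPM, and with unshared stretches 91.6 and 90.9 TPM. These differences were not tested. Pcna, Rpa1 and Mcm2 were among the high genes without a match, and Orc1, Gins3 and Orc3 among the low genes with one. No match says only that these letters were not in this window.

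Many genes of the set start close to another gene. For 14 of the 45 (31.1%) a protein-coding gene on the opposite strand starts within 1000 bases, against 17.6% of detected protein-coding genes. The partners of Mcm4 (385 TPM) and Rpa1 (241 TPM) were lower, with 43, 57 and 55 counts (31.7 ± 3.92 TPM) for the repair kinase gene Prkdc, 466 bases from the start of Mcm4, and 7, 12 and 7 counts (mean 16.1 TPM) for Smyd4, 109 bases from Rpa1. Pole had 481 counts in all, while Pxmp2, 120 bases away, had 0, 1 and 1 (116 against 4.44 TPM). In other pairs the partner was the higher gene: Vps35, whose start lies 170 bases from that of Orc6, had 209, 231 and 211 counts (198 ± 1.48 TPM), and Prpf38a, 87 bases from Orc1, had 31.4 ± 10.1 TPM against 17.1 ± 0.506. In these pairs, some picked after their values were seen, levels on both sides of a shared start region differed in either direction. Rars2, 13 bases from Orc3, was close to it, at 21.3 ± 5.57 against 19.5 ± 5.13 TPM. Exons of Vps35 and Orc6 overlap by 171 bases, and how such bases were counted is not stated. Levels of the neighbours were computed with merged exons only. Of the 45 genes 8 lie on chromosome 5, among them Rfc1, Rfc2, Rfc3, Rfc5, Mcm7 and Pole, and 6 lie on chromosome 8, among them Gins2, Gins3 and Gins4. The share of all genes on these chromosomes was not computed, so these counts do not show clustering.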

How the data were processed

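RNA depleted of ribosomal RNA was sequenced from 3 libraries of mpkDCT4a cells (500 ng RNA, fragments near 300 bases, per the labels' protocols). The authors deposited raw counts of reads per Ensembl gene. Reads were aligned to mm10 with tools that include STAR and HTSeq, per the submitters' processing notes. For versions, strand setting, annotation and multiply mapped reads, the sources used here give nothing. Replicates were matched to columns by the number in their names.

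Gene names, positions and lengths came from GENCODE M21 (GRCm38). Of 55487 identifiers 55227 matched, and the other 260 held 0.0230% of counts. CPM used TMM library sizes (edgeR 4.0.16, R 4.3.3). Stretches of 50 bases shared with transcripts of other genes were counted on either strand. Ratios and their exact binomial 95% intervals used the summed counts per length, without a pseudocount. The log2 ratios of each library, used for direction and the sign-flip test, used counts + 0.5. The chi-square test was tested on simulated counts. p-values measure the spread between these libraries, which may be technical. Alternatives were DESeq2 1.42.0 size factors, library totals, other filters, pseudocounts and lengths, and leaving out each replicate. The length less a fragment, and the other lengths for groups, ranks and promoters, were chosen after seeing the data. Calculations ran in Python 3.11.15 with scipy 1.17.1 and pandas 2.3.3.

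The 45 genes, the gene lists and the 27 pairs were chosen with earlier results of these data known. A further gene, with its pair, is not reported here. Named genes are the 45, the genes of the pairs, the 4 highest and any 0-count gene of each list, markers, and neighbouring or overlapping genes of members; some of the latter were picked after their values were seen.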

Additional observations from a re-analysis of the deposited data

How the results depend on the processing

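The length of a gene was the choice that moved most values. The median of the 45 genes was 82.9 TPM with merged exons, 98.7 TPM with main transcripts, 90.9 TPM with unshared stretches and 70.0 TPM with a fragment length taken off, while the median of detected protein-coding genes was 31.4, 34.0 and 26.7 TPM with merged exons, main transcripts and the fragment taken off. The median factor between the highest and lowest subunit over 9 complexes was 3.93, counting only subunits among the 45 genes. It became 3.22 with main transcripts and 4.28 with the fragment taken off. Polymerases delta and epsilon were thus taken without Pold4, Pole3 and Pole4. With main transcripts the direction turned for Orc6 to Orc2 (1.55) and Pola1 to Pola2 (0.944). Cdt1 to Gmnn ranged from 0.752 to 1.03 when a replicate was left out, passing equality without replicate 1. The share of counts in the 45 genes was 0.623% of all counts and 0.645% of protein-coding counts. The number of genes detected (45), of genes differing between libraries (0) and the median CPM kept within their spread between libraries, or at the same count, under each alternative run, and the number of ratios with intervals excluding equality stayed between 22 and 25. Leaving out replicate 2 or 3 brought 3 and 1 of the 45 genes to an unadjusted p under 0.05 and none past the adjustment. No paired analysis was possible because the labels give 1 group. At this depth a gene such as Gins3, with 17 counts in all, has a 95% Poisson interval of 7.27 to 20.0 CPM.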
